A study of Mus musculus with 11 samples.

Results

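The cytosolic ribosomal protein genes were taken as the rows of the expression table whose symbol begins with Rpl or Rps and a digit, together with Rplp0, Rplp1, Rplp2 and Rpsa. Rows named as pseudogenes and the Rps6k kinases were left out, and a level of log2(TPM + 1) of at least 5 (31 TPM) was required in both retained libraries of control cells without LPS. The members were thus selected on those 2 libraries' own levels. TPM is a length-adjusted share of all transcripts in a library. The rule kept 83 of 52143 genes. By their names, 75 encode canonical ribosomal proteins (45 of the large and 30 of the small subunit), 4 are paralogs (Rpl7l1, Rpl22l1, Rpl36al and Rps27l), 3 are retrocopies (Rps27rt, Rpl37rt and Rps3a2), and 1, Rps19bp1, encodes a protein that binds a ribosomal protein and is not one itself.

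The libraries came from mouse RAW cells, a macrophage-type line. One line carried a short hairpin RNA against GIV (Girdin, gene Ccdc88a) and the other a control hairpin, and each was sampled after 5 h of LPS at 100 ng/ml or without LPS. The 4 groups were GIV-depleted cells with LPS (3 libraries), control cells with LPS (1 library, replicate 2), GIV-depleted cells without LPS (3 libraries) and control cells without LPS (replicates 1 and 3). Control replicate 3 with LPS was not analysed here. Every group carries a hairpin. The labels name neither the number of clones nor separate cultures, so p-values measure only the spread between these samples.

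A ribosome is built from ribosomal RNA and a fixed set of proteins, most of them present once per particle, so cells keep their production matched. Many of their messenger RNAs begin with a stretch of pyrimidines, the terminal oligopyrimidine or TOP motif, through which the kinase mTOR and the protein LARP1 control their translation. TPM measures the RNA and not its translation. LPS, a bacterial cell wall component, activates macrophages through Toll-like receptor 4.

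Pyrimidine runs near the annotated starts of the members were counted. RefSeq start windows on GRCm38.p6, 15 bases before to 15 bases after an annotated start, were found for 62 of the 83 members (73 windows). A run of at least 7 consecutive C or T on the gene's strand was present in 34 windows (46.6%), against 18.6% of all 32851 windows and 17.9% of windows of other genes with a mean of at least 31 TPM. Of the windows of mitochondrial ribosomal protein genes, which encode a separate ribosome, 14.7% held it. Among translation elongation and TOP-type factors it was present in 4 of 8 windows (50%), so it was not particular to the members. The windows below are a selection, made with the values known, of the pair with the longest runs (Rpl7a and Rpl27a), of Rpl12, Rps27l and Rpl13a, among the 7 members with the lowest log2 difference after LPS in GIV-depleted cells, and of Rpl24, Rpl22l1 and Rps27, among the 6 with the highest. Capitals mark the longest run of C and T in each. Rpl34 and Rpl35 (18 bases), Rpl15 (17) and Rpl14 (14) also held long runs and are not shown.
Rpl7a: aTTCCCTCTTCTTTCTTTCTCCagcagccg
Rpl27a: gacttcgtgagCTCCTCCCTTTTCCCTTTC
Rpl13a: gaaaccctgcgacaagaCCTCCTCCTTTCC
Rps27: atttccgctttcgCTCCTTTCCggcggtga
Rps27l: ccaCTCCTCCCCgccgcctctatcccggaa
Rpl22l1: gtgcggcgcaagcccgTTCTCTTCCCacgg
Rpl12: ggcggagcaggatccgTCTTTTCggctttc
Rpl24: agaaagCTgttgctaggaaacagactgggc
These windows lie at chr2:26910792-26910821 (plus strand) for Rpl7a, chr7:109519180-109519209 (plus) for Rpl27a, chr7:45128731-45128760 (minus) for Rpl13a, chr3:90213634-90213663 (minus) for Rps27, chr9:66946071-66946100 (plus) for Rps27l, chr3:28805493-28805522 (plus) for Rpl22l1, chr2:32961697-32961726 (plus) for Rpl12 and chr16:55966260-55966289 (plus) for Rpl24. The run reached 21 bases in Rpl7a and 19 in Rpl27a, while the window of Rpl24 held no run longer than 2. A run anywhere in the window is a description of these letters and not a terminal motif, and an annotated start need not be the start used in these cells.

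Before the comparisons, 1 library stood apart. In control replicate 2 without LPS the members held 0.219% of all TPM, and a single row, Mir6236, held 57.8%. The rule leaves that library out, and the comparisons use the other 9. In those 9, Mir6236 held from 3.79% of all TPM (control library with LPS) to 8.78% (control replicate 1 without LPS). The targeted transcript Ccdc88a was at 3.08, 2.62 and 3.39 TPM in GIV-depleted cells with LPS, against 5.77 TPM in the control library with LPS. In the absence of LPS the level was 6.93, 5.31 and 5.58 TPM in GIV-depleted cells, against 10.0 and 7.69 TPM in control cells. All 7 macrophage markers were at 37.2 TPM or more in the 9 libraries, and 14 markers of fibroblasts, epithelium, lymphocytes and red cells were at 0.693 TPM or less, with 3 of them at 0 throughout.

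The members were among the most abundant transcripts of these cells. Their mean over the 9 libraries ran from 51.7 TPM (Rps19bp1) to 3417 TPM (Rplp1), with a median of 1151 TPM. Of the 83, 49 exceeded 1000 TPM and 25 stood among the 100 most abundant genes. The 10 highest held 27.0% of the members' TPM. Rplp1, an acidic protein of the stalk that recruits translation factors, was followed by Rps27 at 2938, Rps24 at 2777 and Rpl41 at 2733 TPM. The order of the members by level was nearly the same in all 4 groups, with Spearman coefficients of 0.990 to 0.997 between group means across the 83 genes, which share libraries and composition and are not independent. The members lay on 19 chromosomes, with 14 on chromosome 7 and 4 on the X chromosome.

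Several members had far less TPM in their own row than in the rows that share their sequence. Whether reads were assigned to the wrong row was not tested. Mouse ribosomal protein genes have many processed pseudogenes and retrocopies, and a read that matches several rows cannot be assigned by sequence alone. Of the 81 members with a coding sequence, 77 had at least 1 other gene row whose transcripts hold at least 20% of their 31-base words. Adding up such rows, an alternative chosen after low levels of some members had been seen, left the own row with under 50% of the sum for 19 members and with at least 90% for 51. Rps18, a small-subunit protein, had 66.2 TPM in its own row and 2341 TPM with its copies, of which Gm10260 held 1820. Rpl12, a stalk-base protein, had 62.9 TPM alone and 1701 with copies, of which Gm10275 held 1626. Rps12 had 132 TPM alone and 2683 with copies, and Rpl27 had 171 alone and 1990 with copies.

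Genes of this kind stood on both sides of the threshold. Just inside it were Rps18, Rpl12 and Rps19bp1, of which Rps19bp1 had no copy row, and just outside stood Rpl5, at 4.78 and 5.32 on the log2(TPM + 1) scale in control replicates 1 and 3 without LPS, and Rps2, at 3.87 and 4.11. Rps2, which lines the mRNA entry site, had 14.9 TPM in its own row and 2136 with copies, of which Rps2-ps10 held 2116. Rpl5, which binds the 5S ribosomal RNA with Rpl11, had 29.0 TPM alone and 1303 with copies, of which Gm15500 held 1274. Across the 77 canonical genes matched by symbol, own rows spanned 230-fold (14.9 to 3417 TPM) and sums with copies 6.31-fold (542 to 3418 TPM), and the number of genes under 200 TPM was 10 for own rows and 0 for sums.

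**Figure D1:**
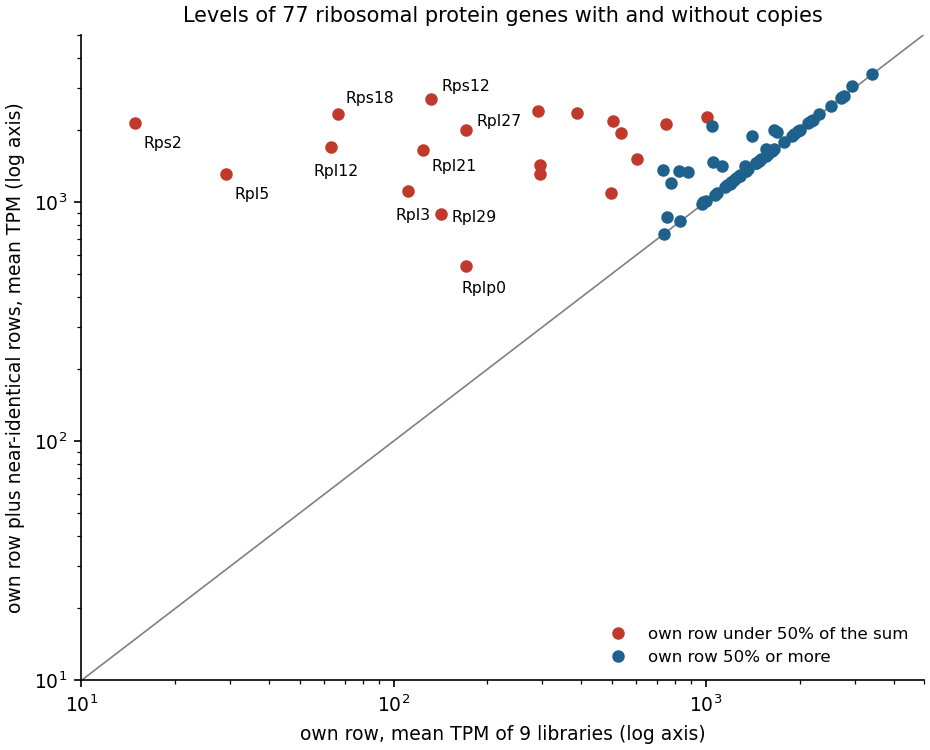
Mean TPM over 9 libraries of 77 canonical ribosomal protein genes, own row alone (x, log axis) against own row plus rows that share its coding sequence (y, log axis); red points are genes whose own row holds under 50% of the sum, and the line marks equality. Own rows reach down to 14.9 TPM, while the lowest sum is 542 TPM (Rplp0).

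The members' summed share of all TPM is given as a description, since the control libraries without LPS are those on which the members were selected and control cells with LPS are 1 library. It was 8.68%, 8.91% and 8.75% in GIV-depleted cells with LPS and 8.87% in the control library with LPS, against 10.4%, 10.6% and 10.8% in GIV-depleted cells and 9.13% and 10.2% in control cells without LPS. All 4 libraries with LPS lay below all 5 without it. The large-subunit members held 4.81% ± 0.0855 and 5.83% ± 0.121 in GIV-depleted cells with and without LPS (SD, n = 3 each), and the small-subunit members 3.97% ± 0.0335 and 4.78% ± 0.0740. A share of TPM in bulk RNA cannot separate fewer cells of a type from less RNA per cell, and it moves with every other transcript of the library.

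**Figure D2:**
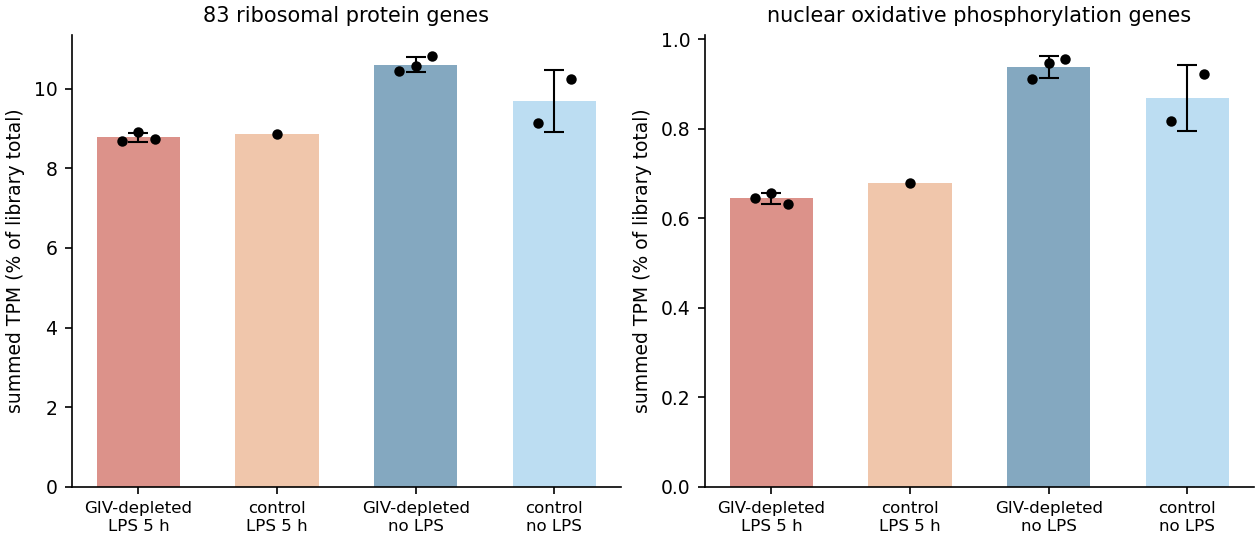
Summed TPM as a percentage of the library total for the 83 ribosomal protein genes (left) and for nuclear oxidative phosphorylation genes (right) in the 4 groups; bars are means, points are libraries, and error bars are SD where a group has more than 1 library. The members hold 8.68% to 8.91% in the 4 libraries with LPS and 9.13% to 10.8% in the 5 without it.

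In GIV-depleted cells, most ribosomal protein transcripts were slightly lower as a share of TPM after 5 h of LPS, a direction that reversed under TMM scaling, which aligns the bulk of genes between libraries. Of the 83 members, 60 were lower and 0 higher at a Benjamini-Hochberg adjusted p under 0.05 in limma with TPM as deposited, against a background of 59.7% of the 13711 genes tested called lower and 15.8% called higher. The members' share called lower was 72.3%, and 56 of the 60 are canonical. That background includes genes far below the members' level. Under a stricter filter, log2(TPM + 1) of at least 3 in 2 or more libraries, 6355 of 9481 genes and 61 members were called lower. At an unadjusted p under 0.05 there were 61. With control replicate 2 without LPS added to the fit, 0 members were called. Their median log2 difference was -0.28 (a fold of 0.824), against -0.54 for all genes, and 80 of 83 stood above the median of all genes. Under TMM scaling 68 members were called higher and 2 lower, with a median of 0.31, against 31.4% of all genes called higher and 35.6% called lower at that scaling. Counts for shorter lists below are to be read against these shares of all genes, 59.7% lower with deposited TPM and 31.4% higher with TMM. That scaling moved the median of all genes by 0.48, so that the members stood 0.26 above the median of all genes with deposited TPM and 0.37 above it with TMM. With quantile normalization they stood below it, by a difference of -0.12, and with no filter on low genes by -0.23.

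The members moved as a narrow block. The middle of their distribution, from the lower to the upper quartile, ran from -0.34 to -0.20, a width of 0.14 on the log2 scale against 1.07 for all genes, and 71 of 83 lay within 0.2 of the members' median. All genes include those far below the members' level, and no width was computed for genes of a like level. Groups did not overlap for 66 members, each lower with LPS, where 61.8% of all genes tested were lower and 16.7% higher without overlap. The median was -0.28 for the large and -0.28 for the small subunit. With copies summed, the median was again -0.28, and 75 of the 77 canonical genes were lower, with a range of -0.54 to 0.08.

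**Figure D3:**
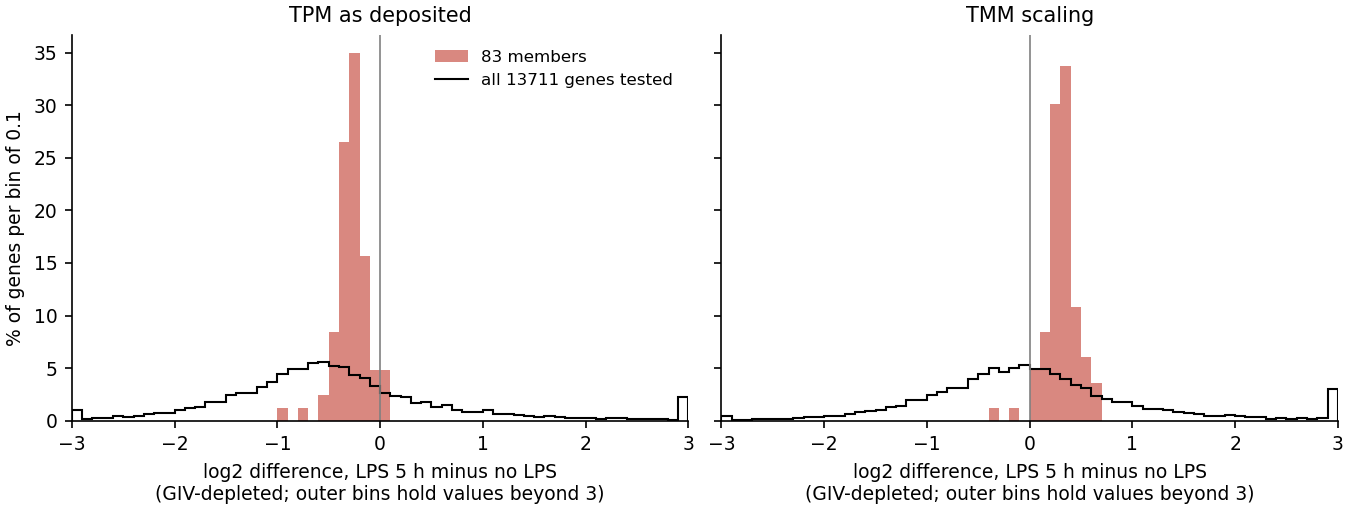
Distribution of log2 differences, LPS 5 h minus no LPS in GIV-depleted cells, for the 83 members (red) and all 13711 genes tested (black line), as a percentage of genes per bin of 0.1, with TPM as deposited (left) and TMM scaling (right). The members form a narrow peak with a median of -0.28 on the left and 0.31 on the right, so the sign of their change depends on the scaling.

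The stalk and its base, where elongation factors dock, held both the most abundant member and the one with the lowest log2 difference. Rpl12 was at 42.9, 46.0 and 41.3 TPM in GIV-depleted cells with LPS and 45.9 TPM in the control library with LPS, against 81.8, 84.5 and 80.7 TPM in GIV-depleted and 64.9 and 77.8 TPM in control cells without LPS. The groups did not overlap in either line. Its log2 difference in GIV-depleted cells was -0.91 ± 0.08 (SE; adjusted p = 1.5e-05, n = 3 each), and -0.33 under TMM scaling. With its copies, which hold most of the sum, the difference was -0.36. Rplp1 was at 3092, 3263 and 3034 TPM in GIV-depleted cells with LPS, against 3815, 3811 and 3862 TPM without, a log2 difference of -0.29 ± 0.06 (adjusted p = 0.00238), and 0.30 under TMM scaling. Rplp0, the stalk's anchor, differed by -0.28 (adjusted p = 0.0341), and Rplp2 by -0.23 (adjusted p = 0.068), so 3 of the 4 stalk genes were called lower with deposited TPM, and 3 were called higher and 1 lower under TMM scaling.

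Rpl11, a partner of the 5S ribosomal RNA that also binds the p53 regulator Mdm2, was at 1256, 1335 and 1333 TPM in GIV-depleted cells with LPS, against 1625, 1669 and 1699 TPM without. The log2 difference was -0.35 ± 0.06 (adjusted p = 0.000574), and 0.24 under TMM scaling. Among 8 proteins near the tunnel exit, where the new chain leaves the ribosome, 6 were called lower with a median of -0.24, and 7 were called higher under TMM scaling. Of 6 proteins at the mRNA entry and exit sites, 5 were called lower, and 5 higher under TMM scaling. Rpsa, at the exit side, differed by -0.41, and by 0.18 under TMM scaling, and Rps3, at the entry, by -0.28, and by 0.31 under TMM scaling.

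Other canonical members at the low end were Rpl14 (-0.52), Rpl10a (-0.50), Rps15 (-0.49) and Rpl13a (-0.46). Rpl13a, which in human monocytes is reported to leave the ribosome and repress inflammatory mRNAs after interferon gamma, was at 1380, 1245 and 1278 TPM in GIV-depleted cells with LPS and 1418 TPM in the control library with LPS. In the absence of LPS Rpl13a was at 1766, 1744 and 1850 TPM in GIV-depleted and 1607 and 1771 TPM in control cells. The groups did not overlap in either line, and the difference in GIV-depleted cells was 0.13 under TMM scaling. Of 12 genes with reported roles outside the ribosome, a list that includes Rpl5, 9 were called lower, and 8 were called higher and 1 lower under TMM scaling.

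At the high end stood Rpl24, Rpl27, Rps20 and the paralogs Rpl22l1 and Rpl7l1. The own row of Rpl27 holds 8.60% of its sum with copies, and its log2 difference was 0.07 alone and -0.17 with copies. Rpl24, a large-subunit protein at the interface between subunits, was at 1025, 968 and 1040 TPM in GIV-depleted cells with LPS, against 939, 935 and 999 TPM without. The groups overlapped, with a log2 difference of 0.08 ± 0.05 and a 95% interval of -0.05 to 0.20 (adjusted p = 0.218). Rps27 was at 3013, 2840 and 2953 TPM with LPS and 3092, 2848 and 3141 TPM without, a difference of -0.04 (adjusted p = 0.582). Neither passed the threshold with deposited TPM, and under TMM scaling Rpl24 differed by 0.67 and Rps27 by 0.55.

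**Figure D4:**
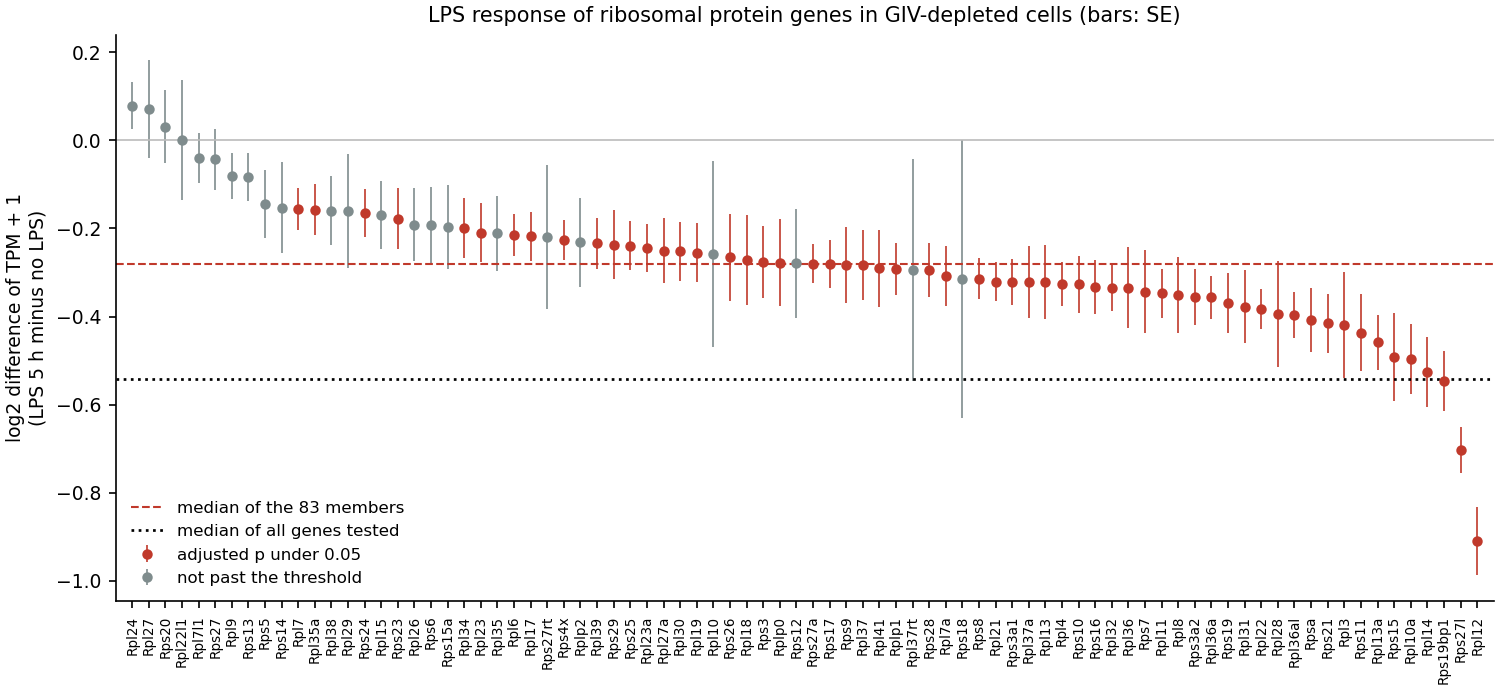
Log2 difference of TPM + 1, LPS 5 h minus no LPS in GIV-depleted cells, for 82 of the 83 members in order, with SE bars; red points have an adjusted p under 0.05, the dashed line is the members' median (-0.28) and the dotted line that of all genes tested (-0.54). The values run from 0.08 (Rpl24) to -0.91 (Rpl12) with deposited TPM, and TMM scaling turns the sign of most.

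Ratios within a library do not depend on how libraries are scaled, and the 2 members of a paralog pair were compared in this way. Rps27l, a paralog of Rps27 that p53 induces in human cells, was at 306, 284 and 277 TPM in GIV-depleted cells with LPS and 343 TPM in the control library with LPS, against 475, 460 and 479 TPM in GIV-depleted and 454 and 460 TPM in control cells without LPS. As a percentage of Rps27 it stood at 10.2, 10.0 and 9.39 in GIV-depleted cells with LPS and 11.9 in the control library with LPS. Without LPS the percentage was 15.4, 16.1 and 15.3 in GIV-depleted and 17.1 and 15.3 in control cells. The 4 libraries with LPS lay below all 5 without it. In GIV-depleted cells the log2 ratio differed by -0.66 between LPS and no LPS (exact two-sided permutation p = 0.1, the smallest that 3 against 3 allows, and 0.2 adjusted over the 4 pairs).

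Rpl22l1 was compared with Rpl22, an RNA-binding protein of the large subunit. The percentage was 43.4, 33.0 and 36.3 in GIV-depleted cells with LPS and 27.6 in the control library with LPS, against 32.3, 28.3 and 25.6 in GIV-depleted and 30.4 and 25.4 in control cells without LPS. The groups of GIV-depleted cells did not overlap, with a log2 ratio difference of 0.38 (exact p = 0.1, adjusted 0.2), while the control library with LPS lay between its 2 control libraries without. For Rpl36al over Rpl36a the difference was -0.04 (exact p = 0.4) and for Rpl7l1 over Rpl7 0.12 (exact p = 0.2), and the groups overlapped in both. No 31-base word of Rps27, Rpl22, Rpl36a or Rpl7 was shared with its paralog. Other rows do share words, and Rpl36a-ps2 (mean 416 TPM) holds all those of Rpl36a and Rps27rt (111 TPM) all those of Rps27. Ratios with copies summed were not computed.

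**Figure D5:**
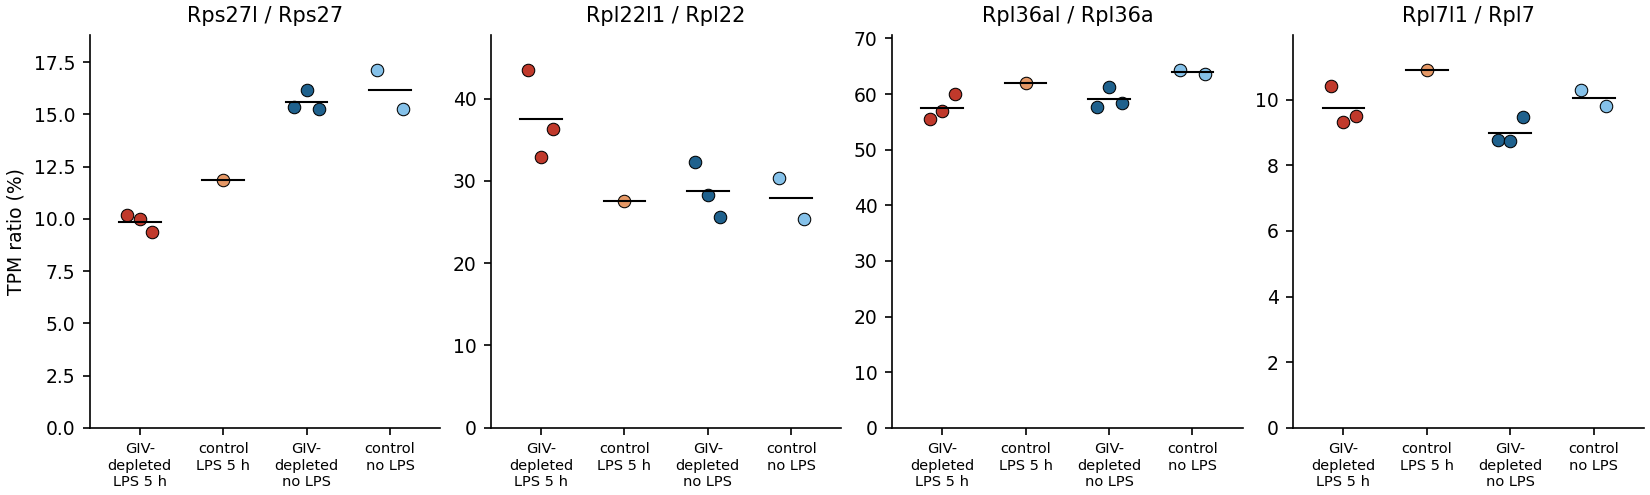
TPM of a paralog as a percentage of the TPM of its partner gene in each library of the 4 groups, for 4 pairs; points are libraries and lines are group means. Rps27l over Rps27 is 9.39% to 11.9% in the libraries with LPS and 15.3% to 17.1% in those without.

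After LPS, no difference between GIV-depleted and control cells passed the threshold for any member. The 3 GIV-depleted libraries were set against the lone control library, and its spread is taken to equal that of the other groups. In limma 0 of 83 members were called, against a background of 5.27% of genes called in either direction (0.890% higher and 4.38% lower), and 1 member (Rps27l) had an unadjusted p under 0.05. The members' median log2 difference was -0.01, against -0.12 for all genes, with 43 members below 0 and 40 above, and it was 0.15 under TMM scaling. The 95% interval lay within 0.5 of 0 for 76 members. Rps27l was at 306, 284 and 277 TPM in GIV-depleted cells, against 343 TPM in the control library, a difference of -0.25 with an interval of -0.42 to -0.07 (adjusted p = 0.102). Rpl22l1 was at 317, 229 and 261 TPM, against 204 TPM, a difference of 0.38 with an interval of -0.07 to 0.83 (adjusted p = 0.301). The retrocopy Rpl37rt was at 688, 372 and 593 TPM, against 715 TPM, and differed by -0.42 ± 0.35 (adjusted p = 0.541).

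The other comparisons contain the control libraries that chose the members, so they are given as descriptions. In control cells with LPS, against those without, the members' median log2 difference was -0.13, beside -0.40 for all genes, and it was 0.31 under TMM scaling. Without overlap between groups, 49 members were lower and 4 higher, where 62.9% of all genes were lower and 24.6% higher. Rpl12 (-0.62 ± 0.12) and Rps27l (-0.41 ± 0.08) again stood lowest and Rpl24 (0.25 ± 0.08) highest. The LPS responses of GIV-depleted and control cells share no library, and across the 83 members Pearson's r was 0.725 and Spearman's rho 0.671, with common abundance and composition behind the points. With deposited TPM, 70 members were lower with LPS in both lines. Of all genes tested, 74.6% were below 0 in GIV-depleted and 69.8% in control cells. Under TMM scaling 81 members were above 0 in GIV-depleted and 82 in control cells.

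Without LPS, the members stood slightly higher in GIV-depleted than in control cells, with a median of 0.12 beside 0.02 for all genes and 81 of 83 above 0. Of all genes tested, 43.8% were below 0. The members above 0 numbered 62 under quantile normalization and 69 without control replicate 1. Groups did not overlap for 40 members, all higher in GIV-depleted cells, where 15.6% of all genes were higher and 12.7% lower. The median was 0.06 without control replicate 1 and 0.20 without control replicate 3. Rpl10a was at 989, 1004 and 1018 TPM in GIV-depleted cells, against 726 and 852 TPM in control cells, a difference of 0.35 ± 0.09. The retrocopy Rps27rt was at 149, 113 and 126 TPM, against 94.9 and 80.9 TPM, a difference of 0.55 ± 0.18. Its coding sequence shares all its words with other rows, and with those rows it was at 3241, 2961 and 3267 TPM in GIV-depleted cells, against 2750 and 3099 TPM in control cells, values that overlap. The response to LPS differed between the lines by a median of -0.14, beside -0.15 for all genes, and by 0.01 under TMM scaling.

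Other genes of the translation machinery are described for the same comparison, LPS in GIV-depleted cells, with no test of a difference from the members. Of 14 elongation and TOP-type factors, 13 were called lower and 0 higher with a median of -0.35, and 10 were called higher and 2 lower under TMM scaling. Eef1a1, the factor that brings aminoacyl-tRNA to the ribosome, differed by -0.17 and Eif4b, a helicase cofactor, by -0.91. Of 20 initiation factors, 12 were lower and 5 higher with a median of -0.22, a share called lower near that of all genes, and 1 was lower and 14 higher under TMM scaling. Eif1 differed by 0.62 and Eif2s2 by 0.56. At the low end of that list, Eif2b1 differed by -1.05, and by -0.48 under TMM scaling, and Eif4g1 by -0.67. Of 35 ribosome assembly genes, 31 were lower and 2 higher with a median of -0.65, and 15 were lower and 8 higher under TMM scaling. The 2 higher with deposited TPM were Tcof1 (0.44) and Sbds (0.38). Gnl3, a nucleolar GTPase, was at 48.8, 45.2 and 47.6 TPM in GIV-depleted cells with LPS, against 136, 134 and 130 TPM without, a difference of -1.48, and -0.90 under TMM scaling. It was also lower in GIV-depleted than in control cells with LPS, by -0.44, a difference that rests on 1 control library (64.4 TPM).

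Of 14 RNA polymerase I genes, 12 were lower and 0 higher, and 6 were lower and 4 higher under TMM scaling. The 2 not called with deposited TPM were Znrd1 (0.007) and Taf1b (-0.11). Ubtf, the activator of ribosomal DNA transcription, was at 17.3, 16.1 and 16.4 TPM in GIV-depleted cells with LPS, against 70.3, 68.6 and 73.8 TPM without, a difference of -2.03, and -1.46 under TMM scaling. The mitochondrial ribosomal proteins had a median of -0.67, with 69 of 80 lower and 4 higher, and 33 lower and 21 higher under TMM scaling. Of 25 rows for regulators of mTOR, of TOP mRNAs and of growth, 15 were lower and 6 higher with a median of -0.57, and 10 were lower and 10 higher under TMM scaling. Sesn1, an inhibitor of mTOR signalling, differed by -2.96, and by -2.54 under TMM scaling. Rows of the same list also went the other way. Ddit4 differed by 2.56, and by 2.997 under TMM scaling, and Mxd1 by 5.24, and by 5.74 under TMM scaling. Ddit4 was also higher in GIV-depleted than in control cells with LPS, by 1.45, a difference that rests on 1 control library (3.25 TPM). The transcription factor Myc was at 66.7, 79.7 and 65.8 TPM in GIV-depleted cells with LPS and 99.9 TPM in the control library with LPS, against 10.2, 9.75 and 9.66 TPM in GIV-depleted and 8.94 and 8.58 TPM in control cells without LPS. Its log2 difference in GIV-depleted cells was 2.72, and 3.28 under TMM scaling.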

How the data were processed

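Total RNA of mouse RAW cells was sequenced after a stranded total RNA library preparation, per the labels' protocols. The authors deposited log2 values, log2(TPM + 1) per gene, made with kallisto 0.45.0 on GRCm38, per the submitters' processing notes. The annotation release is not given in the sources used here. TPM keeps no read total, so the depth of each library is unknown. Values were turned back to TPM for shares and sums.

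Genes reaching 1 on that log2 scale in 2 or more libraries (13711) were fitted with limma 3.58.1 in R 4.3.3, in 1 model of 4 groups and 9 libraries with a mean-variance trend, with Benjamini-Hochberg adjustment over all of them. Members and lists were chosen with earlier results of these data known. Named genes are the 5 highest and 5 lowest by mean, the 6 highest and 6 lowest in a comparison, those beside the threshold, and listed genes at either end of their list, and 1 member is not reported here by name. Copies were found with 31-base words of GENCODE M21 coding sequences. The TMM scaling was an unweighted trimmed mean of log2 TPM ratios (trims of 30% and 5%). The fit was tested on simulated data. Python 3.11.15, pandas 2.3.3, numpy 2.4.6 and matplotlib 3.10.9 made the tables and figures.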

Additional observations from a re-analysis of the deposited data

How the results depend on the processing

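For LPS in GIV-depleted cells, the 60 members called lower became 2 under TMM scaling and 0 with all 10 libraries, and 49 to 64 when 1 library was left out. They became 43 after rescaling without mitochondrial and top genes, and 47 with no filter on low genes. The 0 called higher became 68 under TMM scaling and 1 after rescaling without mitochondrial and top genes. The median of -0.28 became 0.31 and -0.17 under these scalings, and -0.30 to -0.26 when 1 library was left out. All genes called were 10349, 2236 with all 10 libraries, and 9844 to 10407 with 1 library left out. Under TMM scaling 81 of 83 members were above 0, against 4 with deposited TPM. Called genes named here whose log2 difference turned positive include Rplp1 (0.30), Rps24 (0.42), Rpl41 (0.30), Rps19bp1 (0.032), Rpl14 (0.063), Rpl10a (0.092), Rps15 (0.10), Rpl11 (0.24), Rplp0 (0.31), Rpl13a (0.13), Rpsa (0.18), Rps3 (0.31), Rps19 (0.22), Rps27a (0.31), Rpl22 (0.21), Rps25 (0.35), Rpl36a (0.23), Rpl36al (0.19), Rpl7 (0.43), Rpl3 (0.17), Rps4x (0.36) and Rps28 (0.29). Outside the members they include Eef1a1 (0.42) and Uqcrb (0.28). The cause was not tested.

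For depletion with LPS, 0 members were called under every alternative run, and the 722 genes called became 83 with the replicate block, 69 with only the groups compared, 131 at an adjusted p under 0.01, 0 with all 10 libraries, and 325 to 953 with 1 library left out. The members' median of -0.01 became 0.15 under TMM, 0.071 under quantile normalization and 0.11 after rescaling, and -0.03 to 0.00 with 1 library left out. For LPS in control cells the median of -0.13 became 0.31 under TMM, -0.28 under quantile normalization, 1.66 with all 10 libraries, and -0.20 to -0.051 with 1 library left out. For depletion without LPS 0.12 became 0.058 under quantile normalization, 1.92 with all 10 libraries, and 0.057 to 0.20 with 1 library left out. For the difference between the responses -0.14 became 0.0084 under TMM, 0.0081 under quantile normalization, 0.014 after rescaling, -1.96 with all 10 libraries, and -0.22 to -0.073 with 1 library left out. The main fit used no pairing by set number. Deviations from the group mean correlated by -0.00 to 0.10 between same-numbered libraries of different groups and by -0.10 to 0.04 between other-numbered ones. These small values do not settle whether the set numbers mark a pairing. The replicate block gave 61 members lower for LPS in GIV-depleted cells.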

Other observations

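Transcripts outside the translation machinery also moved with LPS. Nuclear oxidative phosphorylation genes held 0.646%, 0.656% and 0.631% of TPM in GIV-depleted cells with LPS and 0.678% in the control library with LPS, against 0.910%, 0.946% and 0.956% in GIV-depleted and 0.817% and 0.921% in control cells without LPS. All 33 rows were called lower in GIV-depleted cells, and 8 lower and 4 higher under TMM scaling. Sdha, a subunit of complex II, differed by -1.21 and Uqcrb, of complex III, by -0.31. The host genes of small nucleolar RNAs, which guide ribosomal RNA modification, were lower in 10 of 12, with Snhg5 at -1.75, and Zfas1 was higher at 0.82; under TMM scaling 6 were lower and 1 higher.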
